A study of Caenorhabditis elegans with 12 samples.

Results

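The lysosomal acid lipases of Caenorhabditis elegans are encoded by the lipl gene family, and all 8 members named lipl-1 to lipl-8 were found in the deposited table by gene name, among 18467 genes. Their transcripts were measured by polyA RNA sequencing of whole wild-type N2 worms in 4 groups of 3 libraries, given here as vha-6 RNAi, vha-16 RNAi, vha-19 RNAi and control RNAi. The 3 target genes encode parts of the V-ATPase, a proton pump. vha-6 encodes an intestinal subunit of its membrane sector, vha-16 another membrane-sector subunit and vha-19 an accessory subunit. Which membranes hold the pumps with these subunits was not measured here, nor was lysosomal pH. Worms ate RNAi bacteria from the first larval stage for 2.5 days at 20 °C and were collected as L4 larvae or young adults. In each vha group the food held 25% bacteria for the target and 75% control bacteria, and no group received a drug or a second genotype. RNAi by feeding lowers a transcript without removing it, and each library pools whole animals, so that fewer cells of a type and less RNA per cell cannot be told apart.

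Lysosomal acid lipases cut triglycerides and cholesteryl esters into free fatty acids inside the lysosome, in the acidic lumen that the V-ATPase maintains. The human member is LIPA, whose loss leaves neutral lipid stranded in lysosomes. In C. elegans the enzymes act mostly in the intestine, the main fat store of the worm. Fasting raises several of them through the transcription factor HLH-30, the worm counterpart of TFEB, while MXL-3 opposes it in fed animals. LIPL-4 is known from long-lived worms, where its products are carried by the fatty acid binding protein LBP-8 to nuclear receptors.

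Of the 8 genes, 7 lie on chromosome V (WBcel235, Ensembl annotation) and lipl-7 (WBGene00008510) on chromosome IV, at 10239278 to 10241823. On chromosome V, lipl-5 (WBGene00022642, 385746 to 387740) and lipl-3 (WBGene00020016, 521595 to 524218) are the closest pair, 133854 bases apart on opposite strands. The others are lipl-4 (WBGene00019376, 6550171 to 6552186), lipl-6 (WBGene00021963, 6931475 to 6934312), lipl-2 (WBGene00009773, 9791567 to 9793241), lipl-1 (WBGene00010062, 12919986 to 12921692) and lipl-8 (WBGene00013050, 14745684 to 14748708). All are annotated as protein-coding, with 1209 to 1929 bases of exon. Exons of lipl-3 share 23 bases with srw-107, and exons of lipl-4 overlap a noncoding RNA by 120 bases and a tRNA by 82 bases. None of these 3 overlapping genes has a row in the table.

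The libraries held 21981854 to 22553227 counts in genes, and the knockdowns were seen at the transcript level. The vha-6 transcript stood at 23.4% of control on vha-6 RNAi, vha-16 at 61.0% on vha-16 RNAi and vha-19 at 46.3% on vha-19 RNAi. The vha-6 transcript was also low in the other knockdowns, at 31.7% of control on vha-16 RNAi and 28.8% on vha-19 RNAi. On vha-6 RNAi the vha-16 and vha-19 transcripts stood at 197% and 166.5% of control. On vha-16 RNAi vha-19 stood at 67.8%, and on vha-19 RNAi vha-16 at 85.9%. The expression change was very wide. In edgeR's quasi-likelihood test with Benjamini-Hochberg adjustment, 89.4% of the 17043 genes tested passed adjusted p under 0.05 on vha-6 RNAi, 89.8% on vha-16 RNAi and 89.9% on vha-19 RNAi, each against control, so that passing the test is the common case here. Levels are given in CPM, counts relative to the library size after scaling by TMM, a method that sets aside genes of extreme change. The target shares depend on this scaling. By library totals, vha-6 had 93.45 to 103.5 CPM on its own RNAi, against 305.4 to 313.9 CPM in control. vha-16 had 289.5 to 304.7 CPM on its own RNAi and 416.6 to 431 CPM on vha-19 RNAi, against 332.2 to 345.7 CPM. vha-19 had 230.2 to 251.3 CPM on its own RNAi and 347 to 354.4 CPM on vha-16 RNAi, against 357.7 to 364 CPM. vha-16 thus lay above control on vha-19 RNAi. Markers of adult reproduction differed between the groups. All 10 oocyte markers fell in every knockdown, with summed levels of 741 to 759 CPM on vha-6 RNAi, 637 to 642 CPM on vha-16 RNAi and 653 to 679 CPM on vha-19 RNAi, against 8234 to 8379 CPM in control. Yolk protein genes took 0.911% to 1.02%, 0.548% to 0.603% and 0.440% to 0.511% of gene counts in those knockdowns, against 7.91% to 8.16% in control. The part of this difference in the lipl results was not tested.

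On vha-6 RNAi and in control the family was carried by 1 gene. Per kilobase of exon, lipl-5 led in every group, at 445 ± 11 CPM per kilobase on vha-6 RNAi, 56.8 ± 1.72 on vha-16 RNAi, 38.9 ± 3.5 on vha-19 RNAi and 428 ± 8.80 in control (SD, n = 3 each). Behind it in control came lipl-7 at 34.1, lipl-1 at 12.6, lipl-2 at 10.5, lipl-3 at 4.04, lipl-6 at 0.786 and lipl-4 at 0.226 CPM per kilobase, with no overlap between the libraries of neighbours in this order, and lipl-8 had no count. The order changed with the knockdown. On vha-6 RNAi lipl-1 was second at 30.2 CPM per kilobase, followed by lipl-2 at 21.4 and lipl-7 at 20.9, whose libraries overlapped. On vha-16 RNAi lipl-7 was second at 22.2 CPM per kilobase, and lipl-2 at 3.41 and lipl-1 at 2.93 overlapped. On vha-19 RNAi lipl-7 was second at 25.6 CPM per kilobase, and lipl-6 at 2.14 and lipl-1 at 2.09 overlapped. The gene lipl-3, which ranked above lipl-6 and lipl-4 in control, was last on both vha-16 RNAi (0.056 CPM per kilobase) and vha-19 RNAi (0.0276 CPM per kilobase). It overlapped lipl-4 on vha-16 RNAi, and also on vha-6 RNAi, where they stood at 0.534 and 0.481 CPM per kilobase.

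**Figure D1:**
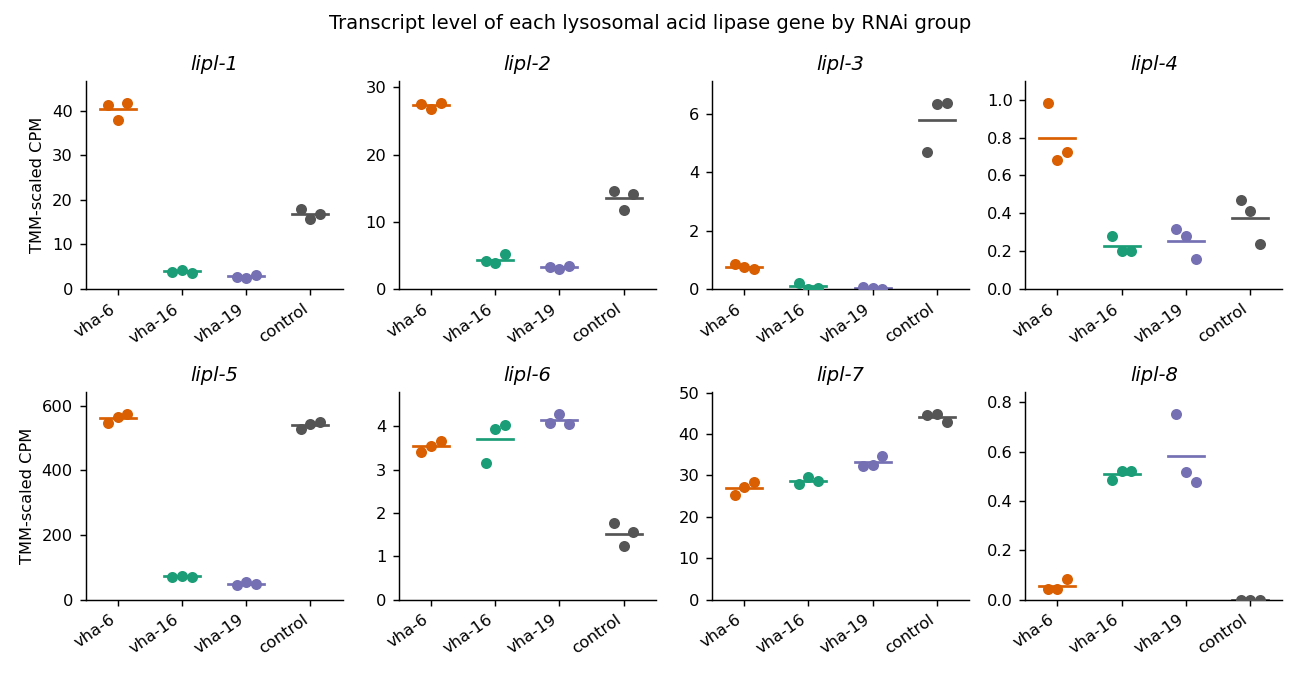
Level of each lipl gene in TMM-scaled CPM (linear axis from 0, a different range in each panel) in the 3 libraries of each RNAi group; points are libraries and lines are group means. lipl-1, lipl-2 and lipl-5 are low on vha-16 and vha-19 RNAi and not on vha-6 RNAi, lipl-3 is high in control alone, and lipl-6 is lowest in control.

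Summed over the 8 genes, lipl transcripts reached 661 ± 15.6 CPM on vha-6 RNAi, 113 ± 3.29 CPM on vha-16 RNAi, 93.3 ± 4.30 CPM on vha-19 RNAi and 622 ± 9.90 CPM in control (SD, n = 3 each). The share of lipl-5 in this sum was 84.9% ± 0.359 on vha-6 RNAi, 63.3% ± 0.537 on vha-16 RNAi, 52.5% ± 2.51 on vha-19 RNAi and 86.8% ± 0.468 in control. The other 7 genes together gave 99.9 ± 2.99 CPM on vha-6 RNAi, 41.5 ± 1.36 CPM on vha-16 RNAi, 44.2 ± 1.37 CPM on vha-19 RNAi and 82.1 ± 1.94 CPM in control. The summed level was set mostly by lipl-5 on vha-6 RNAi and in control, and less so on vha-16 and vha-19 RNAi. The order of vha-6 RNAi and control depends on the scaling, with 656 CPM on vha-6 RNAi and 678.6 CPM in control by DESeq2's size factors, and 693.7 CPM and 479 CPM by library totals.

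**Figure D2:**
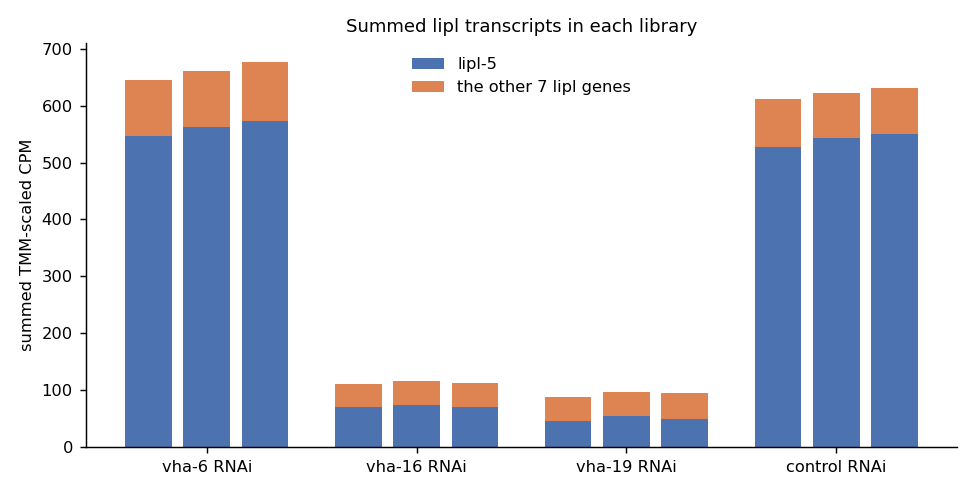
Summed TMM-scaled CPM of the 8 lipl genes in each of the 12 libraries, one bar per library, with the lipl-5 part below and the other 7 genes above. The sum lies between 645.9 and 677 CPM on vha-6 RNAi, between 88.5 and 116.6 CPM on vha-16 and vha-19 RNAi, and between 612.1 and 631.9 CPM in control.

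The comparison of each knockdown with control asks whether the lipase genes change when a V-ATPase gene is knocked down. On vha-6 RNAi 5 of the 8 genes were called higher (lipl-1, lipl-2, lipl-4, lipl-6 and lipl-8) and 2 lower (lipl-3 and lipl-7), and lipl-5 was not called. Of all genes tested, 47.9% were called higher and 41.4% lower in that comparison. On vha-16 RNAi 2 were called higher (lipl-6 and lipl-8), 5 lower (lipl-1, lipl-2, lipl-3, lipl-5 and lipl-7), and lipl-4 was not called. The shares over all genes tested were 48.0% higher and 41.9% lower. On vha-19 RNAi lipl-6 and lipl-8 were called higher, lipl-1, lipl-2, lipl-3, lipl-5 and lipl-7 lower, and lipl-4 was not called, against 47.7% higher and 42.2% lower over all genes. The libraries of knockdown and control did not overlap for 7 of the 8 genes in each comparison, as was so for 89.6% of all genes tested on vha-6 RNAi, 90.0% on vha-16 RNAi and 89.9% on vha-19 RNAi. With library totals in the place of TMM, 63.9%, 65.2% and 65.3% of the called genes were higher, against 53.6%, 53.4% and 53.0% with TMM, and the lipl calls became 6 higher and 2 lower, 2 higher and 4 lower, and 3 higher and 4 lower. With DESeq2's size factors they became 4 higher and 3 lower on vha-6 RNAi, with lipl-5 called lower, and stayed at 2 higher and 5 lower in the other comparisons. These 3 comparisons share their control libraries.

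Counting calls of 2-fold or more, vha-6 RNAi had 5 higher and 1 lower of 8, where 32.0% and 22.7% of all genes passed. Of these 5, lipl-8 counts by its fitted value alone, since 4 counts against 0 allow no fold bound above 1. With DESeq2's size factors lipl-2 (0.88) and lipl-4 (0.94) lie under 2-fold and lipl-8 is not called, which leaves lipl-1 (1.13) and lipl-6 (1.08). On vha-16 RNAi 2 were higher and 4 lower, where 34.3% and 24.8% of all genes passed. On vha-19 RNAi 2 were higher and 4 lower, where 33.6% and 24.9% passed. The median log2 fold change of the 8 genes was 1.05 on vha-6 RNAi, -1.16 on vha-16 RNAi and -1.31 on vha-19 RNAi, and that of all genes tested was 0.24, 0.20 and 0.19 in those comparisons. The vha-6 median becomes 0.54 with lipl-8 set at the bound that its 0 control counts allow, and the other medians keep their values. With library totals the medians of the 8 genes are 1.49, -0.65 and -0.77, and with DESeq2's size factors 0.91, -1.35 and -1.48.

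All 8 genes passed the filter on low counts, which asks for about 0.446 CPM in 3 libraries. Of them, lipl-4 passed only through vha-6 RNAi, lipl-8 only through vha-16 and vha-19 RNAi, and lipl-3 through vha-6 RNAi and control. The other 5 genes passed in all 12 libraries. lipl-3, lipl-4 and lipl-8 were thus kept for the groups where they reach that level. Their calls between those groups and the remaining ones add no support to the counts of calls above and below.

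**Figure D3:**
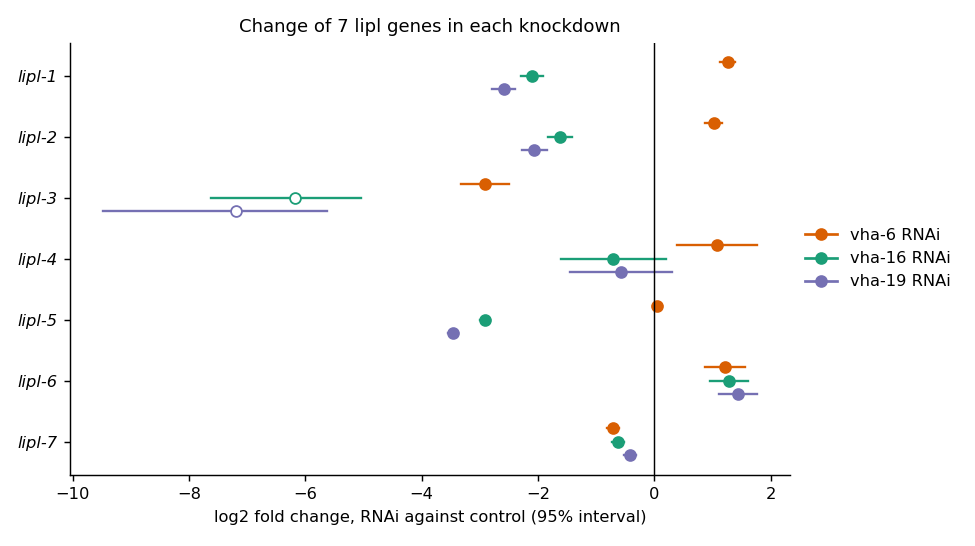
Log2 fold change of 7 lipl genes in each knockdown against control, with 95% intervals; open symbols are ratios of pooled counts with exact counting intervals, used where a group held 10 counts or fewer. lipl-8 has no control count and is left out. The vha-6 points of lipl-1, lipl-2 and lipl-4 lie right of 0 and their vha-16 and vha-19 points left of it, while the points of lipl-6 all lie right and those of lipl-3 and lipl-7 all left.

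lipl-1 encodes a lipase that fasting induces in worms, and lipl-2 had the profile most like it in the family. Both rose on vha-6 RNAi and fell on vha-16 and vha-19 RNAi. lipl-1 had 41.3, 38.1 and 41.7 CPM on vha-6 RNAi, 3.87, 4.34 and 3.54 CPM on vha-16 RNAi, 2.732, 2.54 and 3.10 CPM on vha-19 RNAi, and 17.9, 15.6 and 16.9 CPM in control. No library of one group overlapped those of another, and the order was vha-6, control, vha-16, vha-19 from high to low. Against control its log2 fold change was 1.26 on vha-6 RNAi (SE 0.0646, adjusted p = 4.95e-19), -2.10 on vha-16 RNAi (SE 0.0957, adjusted p = 1.52e-20) and -2.59 on vha-19 RNAi (SE 0.102, adjusted p = 2.36e-22). The rise was 2.40-fold, and 73.3% of all tested genes had a lower value on vha-6 RNAi. The falls were deeper within their comparisons, where 7.23% of genes lay below lipl-1 on vha-16 RNAi and 5.31% on vha-19 RNAi.

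lipl-2 followed the same order at a lower level, with 27.6, 26.8 and 27.6 CPM on vha-6 RNAi, 4.11, 3.78 and 5.18 CPM on vha-16 RNAi, 3.33, 3.01 and 3.34 CPM on vha-19 RNAi, and 14.5, 11.7 and 14.1 CPM in control. Again no library of one group overlapped those of another. The log2 fold change was 1.02 on vha-6 RNAi (SE 0.0759, adjusted p = 1.73e-14), -1.63 on vha-16 RNAi (SE 0.104, adjusted p = 2.56e-16) and -2.06 on vha-19 RNAi (SE 0.11, adjusted p = 1.66e-18). Among the 28 pairs of family members, lipl-1 and lipl-2 had the most alike profiles over the 12 libraries, with a root mean square difference of 0.405 in log2 CPM relative to control.

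lipl-3 encodes a lipase that fasting induces in worms, and it fell in all 3 knockdowns. It had 20, 18 and 16 counts on vha-6 RNAi, 5, 0 and 1 counts on vha-16 RNAi, 2, 1 and 0 counts on vha-19 RNAi, and 80, 108 and 107 counts in control. The control libraries were highest, the vha-6 libraries stood apart from both sides, and the vha-16 and vha-19 libraries overlapped near 0. On vha-6 RNAi the level was 0.767 ± 0.0859 CPM, against 5.81 ± 0.972 CPM in control (SD, n = 3 each), a log2 fold change of -2.91 (SE 0.21, adjusted p = 7.42e-15). By pooled counts lipl-3 was 72.2-fold lower on vha-16 RNAi than in control, with a 95% counting interval of 32.8 to 198 on 6 counts. Of these, 5 came from replicate 1, and without it the fitted log2 fold change is -7.82, against -6.08 with all libraries. On vha-19 RNAi it was 146-fold lower, with an interval of 49.6 to 714 on 3 counts. The tests gave adjusted p = 1.52e-18 on vha-16 RNAi and 6.65e-19 on vha-19 RNAi, and 0.88% and 0.499% of all genes tested had a lower fitted value in these comparisons. Counting intervals cover counting error only.

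lipl-5, another fasting-induced lipase gene, had the family's most abundant transcript. It had 546.5, 563 and 574 CPM on vha-6 RNAi, 70.1, 74.1 and 70.7 CPM on vha-16 RNAi, 44.8, 53.6 and 48.8 CPM on vha-19 RNAi, and 528, 543 and 549.8 CPM in control. The vha-6 and control libraries overlapped, and the other groups lay far below them and apart from each other. The log2 fold change was -2.91 on vha-16 RNAi (SE 0.0422, adjusted p = 5.9e-35) and -3.46 on vha-19 RNAi (SE 0.044, adjusted p = 1.6e-36), which is 7.54-fold and 11-fold lower than in control. On vha-6 RNAi it was 0.06 (95% interval -0.02 to 0.13, adjusted p = 0.157). The sign of this small value depends on the scaling, since it is -0.08 with DESeq2's size factors (adjusted p = 0.0441) and 0.50 with library totals (adjusted p = 1.6e-14).

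lipl-4, the lipase of the longevity pathway, was scarce. It had 23, 16 and 17 counts on vha-6 RNAi, 7, 5 and 5 counts on vha-16 RNAi, 8, 7 and 4 counts on vha-19 RNAi, and 8, 7 and 4 counts in control. The vha-6 libraries were above all others, which overlapped. It rose on vha-6 RNAi with a log2 fold change of 1.08 (SE 0.352, adjusted p = 0.0052), a call that DESeq2's Wald test does not make (0.95, adjusted p = 0.0619). On vha-16 RNAi the value was -0.70 (95% interval -1.60 to 0.20, adjusted p = 0.149), and on vha-19 RNAi it was -0.56 (-1.44 to 0.31, adjusted p = 0.235). These intervals include both no change and a fall of 2-fold.

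lipl-6, lipl-7 and lipl-8 are family members for which no role is given here. lipl-6 rose in every knockdown, with 3.41, 3.53 and 3.66 CPM on vha-6 RNAi, 3.14, 3.94 and 4.02 CPM on vha-16 RNAi, 4.08, 4.28 and 4.05 CPM on vha-19 RNAi, and 1.76, 1.24 and 1.55 CPM in control. The control libraries were lowest, and the vha-6 and vha-16 libraries overlapped. Its log2 fold change was 1.22 on vha-6 RNAi (adjusted p = 8.25e-08), 1.28 on vha-16 RNAi (adjusted p = 1.92e-08) and 1.45 on vha-19 RNAi (adjusted p = 8.74e-10). Between 71.2% and 74.6% of all tested genes had a lower value in these comparisons.

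lipl-7 was the family member with the smallest called changes. It had 25.3, 27.3 and 28.5 CPM on vha-6 RNAi, 27.9, 29.7 and 28.6 CPM on vha-16 RNAi, 32.4, 32.5 and 34.6 CPM on vha-19 RNAi, and 44.7, 44.9 and 42.9 CPM in control. Control was highest, and the vha-6 and vha-16 libraries overlapped. The log2 fold change was -0.71 on vha-6 RNAi (SE 0.0525, adjusted p = 1.6e-14), -0.62 on vha-16 RNAi (SE 0.0515, adjusted p = 3.14e-13) and -0.41 on vha-19 RNAi (SE 0.0504, adjusted p = 3.23e-09). Under scaling by library totals the last turns to 0.13 (adjusted p = 0.0173) and the vha-16 value shrinks to -0.10 (adjusted p = 0.0672).

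lipl-8 had no count in any control library. It had 1, 1 and 2 counts on vha-6 RNAi, 12, 13 and 13 counts on vha-16 RNAi, and 19, 13 and 12 counts on vha-19 RNAi. The vha-16 and vha-19 libraries overlapped and lay above the vha-6 libraries. lipl-8 was called higher on vha-16 RNAi (adjusted p = 3.99e-07) and on vha-19 RNAi (adjusted p = 1.18e-07). The most that a control count of 0 allows was taken as 3 counts over the group (0.0591 CPM). Against that level lipl-8 stood 8.63-fold higher on vha-16 RNAi and 9.85-fold higher on vha-19 RNAi, with the knockdown counts held as exact. With counting error on both sides, the exact counting intervals reach down to 6.68-fold on vha-16 RNAi and 7.68-fold on vha-19 RNAi. The vha-6 call rests on 4 counts in all (adjusted p = 0.0418) and is lost in 7 of 11 alternatives, where adjusted p ran from 0.0227 to 0.13.

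**Figure D4:**
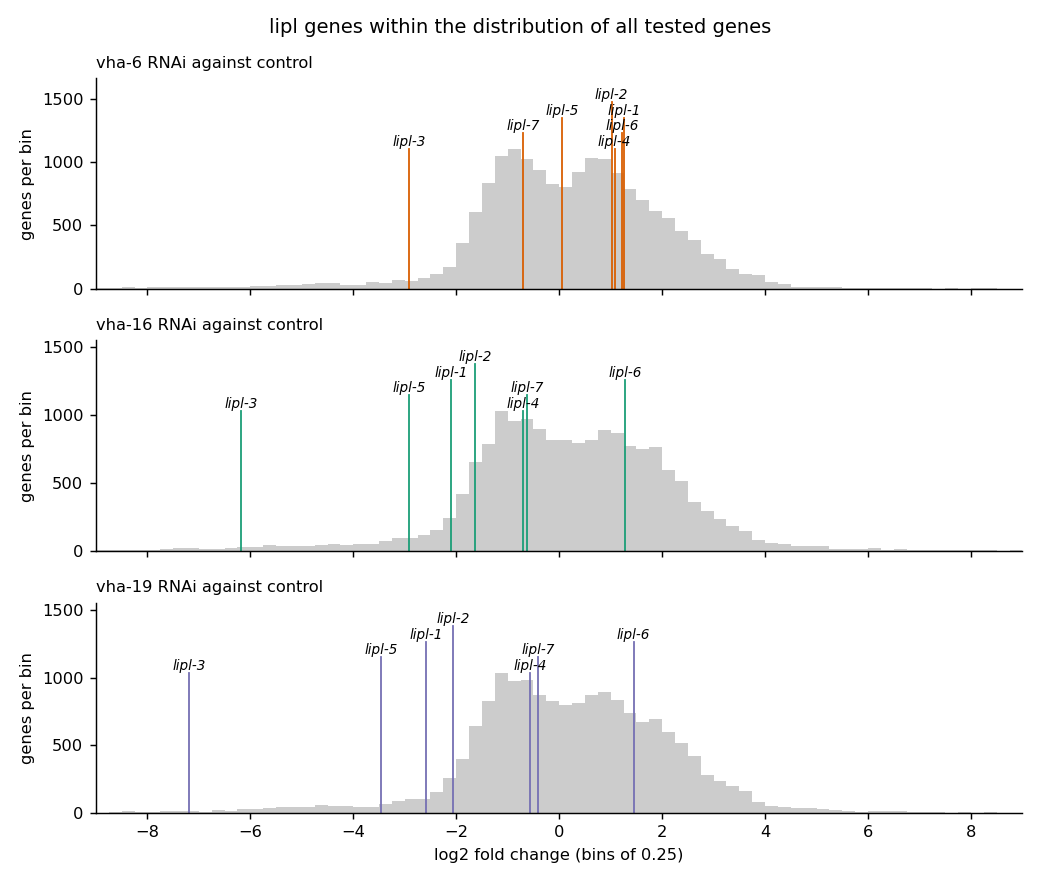
Log2 fold change of all 17043 tested genes in each knockdown against control, as the number of genes per bin of 0.25, with the 7 lipl genes that have control counts marked by lines. lipl-3 lies in the lower tail in all 3 panels, and lipl-1, lipl-2 and lipl-5 lie at the left of the main body or beyond it on vha-16 and vha-19 RNAi and within it on vha-6 RNAi; lipl-3 is drawn at its pooled-count ratio on vha-16 and vha-19 RNAi.

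The knockdowns were also compared with each other, in contrasts without the control group. The control libraries still entered the filter, the scaling and the shared estimate of the spread. On vha-16 RNAi compared with vha-6 RNAi, 5 of the 8 genes were called lower (lipl-1 to lipl-5) and 1 higher (lipl-8), while 31.2% and 31.6% of all genes tested passed in those directions. All 5 falls were of 2-fold or more, a size that 7.39% of all genes tested reached. The log2 fold change of vha-16 RNAi over vha-6 RNAi was -3.36 for lipl-1 (SE 0.0786, adjusted p = 1.69e-28), -2.65 for lipl-2 (SE 0.0869, adjusted p = 3.73e-24) and -2.97 for lipl-5 (SE 0.042, adjusted p = 7.43e-35). In that comparison 1.03%, 1.70% and 1.35% of all tested genes had lower values. lipl-4 stood at -1.78 (SE 0.353, adjusted p = 4.41e-05), and lipl-3 was 9.53-fold lower by pooled counts (interval 4.11 to 27.1, 6 counts against 54, adjusted p = 2.46e-06). lipl-4 passed the filter only through its level on vha-6 RNAi, lipl-3 through vha-6 RNAi and control, and lipl-8 through vha-16 and vha-19 RNAi. The calls of these genes here add no support. The fitted value of lipl-3 is -3.17, and -4.94 without vha-16 replicate 1.

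Libraries did not overlap for 6 of the 8 genes, and for 66.6% of all genes tested, of which 62.8% were called and 8.11% called higher by 2-fold or more. lipl-8 was 8.97-fold higher on vha-16 RNAi than on vha-6 RNAi by pooled counts, with an interval of 3.23 to 34.6 on 38 counts against 4 (adjusted p = 8.89e-06). lipl-6 and lipl-7 were not called between these knockdowns, at 0.07 (95% interval -0.19 to 0.32) and 0.09 (-0.02 to 0.19).

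On vha-19 RNAi compared with vha-6 RNAi the same 5 genes were called lower, all by 2-fold or more, where 29.0% of all genes were lower and 6.29% lower by 2-fold. The values were -3.85 for lipl-1 (adjusted p = 2.22e-29), -3.08 for lipl-2 (adjusted p = 2.7e-25), -1.64 for lipl-4 (adjusted p = 0.000101) and -3.52 for lipl-5 (adjusted p = 1.68e-36). lipl-3 was 19.3-fold lower by pooled counts, with an interval of 6.28 to 96.7 on 3 counts against 54. lipl-7 (0.29, adjusted p = 7.71e-06) and lipl-8 (10.2-fold by pooled counts, interval 3.73 to 39.2) were called higher, where 29.5% of all genes were. Of these, lipl-8 rose by 2-fold or more, as did 6.99% of all genes. lipl-3 and lipl-4 passed the filter without a library of vha-19 RNAi, and lipl-8 without one of vha-6 RNAi. The calls of these genes here add no support. No gene of the 8 had overlapping libraries between these groups, as was so for 63.2% of all genes tested. This comparison and the previous one share the vha-6 libraries.

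Between vha-19 RNAi and vha-16 RNAi the family differed by small amounts. Of the 8 genes 3 were called lower on vha-19 RNAi and 1 higher, where 9.81% of all genes tested were lower and 7.56% higher, and no change reached 2-fold, a size that 0.106% (higher) and 0.417% (lower) of all genes reached. Libraries did not overlap for 5 of the 8 genes and for 30.2% of all genes. lipl-5 was lower on vha-19 RNAi, with a log2 fold change of -0.55 (SE 0.0469, adjusted p = 4.34e-11), or 1.46-fold. lipl-1 (-0.49, adjusted p = 0.00711) and lipl-2 (-0.43, adjusted p = 0.0176) were lower and lipl-7 higher (0.21, adjusted p = 0.00323). The lipl-1 call is lost without vha-16 replicate 2 (adjusted p = 0.0682) or vha-19 replicate 2 (adjusted p = 0.0588). The lipl-2 call is lost without vha-16 replicate 3 (adjusted p = 0.212) or vha-19 replicate 2 (adjusted p = 0.0907).

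Since worm lipases act mostly in the intestine, markers of that tissue were set beside the family. Summed over 14 intestinal markers the level was 3806 to 3846 CPM on vha-6 RNAi, 3106 to 3136 CPM on vha-16 RNAi and 3503 to 3517 CPM on vha-19 RNAi, against 2055 to 2101 CPM in control, and no marker was at 0 in a group. On vha-6 RNAi 13 of the 14 rose and 1 fell. On vha-16 RNAi 9 rose and 5 fell, and on vha-19 RNAi 9 rose and 4 fell. With library totals these become 11 and 2 on vha-16 RNAi and 11 and 3 on vha-19 RNAi. The intestinal GATA factor gene elt-2 rose in each knockdown (log2 fold change 1.18, 1.43 and 1.48 on RNAi of vha-6, vha-16 and vha-19). The gut esterase gene ges-1 rose slightly on vha-6 RNAi (0.14, adjusted p = 0.019) and fell on vha-16 RNAi (-2.52) and vha-19 RNAi (-2.65); these 2 genes were chosen after their values were seen. The metallothionein gene mtl-2 fell in all 3 (-2.71, -5.49 and -6.34). Of 10 markers each, in the order vha-6, vha-16, vha-19, sperm markers rose for 9, 9 and 10, hypodermal markers for 7 in each, and neuronal markers for 9, 10 and 10. In each knockdown 3 hypodermal markers fell, as did 1 neuronal marker on vha-6 RNAi. Beside these counts and those of the lists below, 47.9%, 48.0% and 47.7% of all genes tested were called higher. The shares called lower were 41.4%, 41.9% and 42.2%. Body-wall muscle markers rose for 7, 1 and 1 and fell for 3, 8 and 7, and their median in the last 2 comparisons turns positive with library totals (0.07 and 0.04). The part of these tissues in the lipl results was not tested.

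Of the genes that control or relay lysosomal lipolysis, 12 were listed and all were tested. On vha-6 RNAi 8 rose and 4 fell, on vha-16 RNAi 6 rose and 2 fell, and on vha-19 RNAi 7 rose and 4 fell. Their median log2 fold changes were 0.71, 0.27 and 0.38, beside 0.24, 0.20 and 0.19 for all genes tested. With library totals the rises become 11 on both vha-16 and vha-19 RNAi and the falls 1 in each of the 3 comparisons, so the direction of small changes in this list rests on the scaling.

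hlh-30, the activator of lipase genes in fasting, rose in every knockdown. It had 158, 164 and 162.5 CPM on vha-6 RNAi, 201, 188 and 200.5 CPM on vha-16 RNAi, 179, 181 and 197.5 CPM on vha-19 RNAi, and 89.3, 81.9 and 90.9 CPM in control. No knockdown library overlapped control. The log2 fold change was 0.89 on vha-6 RNAi, 1.17 on vha-16 RNAi (adjusted p = 2.18e-23) and 1.09 on vha-19 RNAi (adjusted p = 1.71e-22).

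mxl-3, the repressor of lipase genes in fed worms, had 86.2, 97.4 and 90.8 CPM on vha-6 RNAi, 45.6, 53.2 and 42.3 CPM on vha-16 RNAi, 48.6, 69.4 and 57.1 CPM on vha-19 RNAi, and 52.9, 53.1 and 51.8 CPM in control. It rose on vha-6 RNAi (log2 fold change 0.80), where its libraries lay above all others. On vha-16 RNAi it was -0.16 (adjusted p = 0.0625) and on vha-19 RNAi 0.15 (adjusted p = 0.0751), values whose sign depends on the scaling. The Myc network genes mml-1 and mxl-2 fell by 0.22 and 0.50 on the log2 scale on vha-6 RNAi. They fell by 0.23 and 0.20 on vha-19 RNAi. Library totals turn or end these falls. On vha-16 RNAi they stood at -0.05 and -0.08 and were not called.

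lbp-8, the carrier that links LIPL-4 to nuclear receptors, had a profile like that of lipl-3. It had 17, 11 and 11 counts on vha-6 RNAi, 2, 0 and 2 counts on vha-16 RNAi, 2, 0 and 0 counts on vha-19 RNAi, and 56, 52 and 51 counts in control. Control was highest, vha-6 RNAi stood between, and the other groups overlapped near 0. Its log2 fold change was -2.49 on vha-6 RNAi (SE 0.243). By pooled counts it was 58.4-fold lower on vha-16 RNAi (interval 22.4 to 217) and 118-fold lower on vha-19 RNAi (interval 32.3 to 986), both against control. Of the receptors downstream, nhr-80 rose in all 3 (0.71, 0.62 and 0.70 on RNAi of vha-6, vha-16 and vha-19), as did nhr-62, a receptor gene of dietary restriction (0.97, 0.86 and 0.82). nhr-49 fell (-0.48, -0.31 and -0.33), but with library totals it is -0.03, 0.21 and 0.21.

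The secreted fatty acid binding protein gene lbp-3 rose on vha-6 RNAi (1.25) and stood at 0.01 on vha-16 RNAi (adjusted p = 0.866). On vha-19 RNAi it was 0.25, which becomes 0.08 with DESeq2's size factors (adjusted p = 0.0843). The neuropeptide gene nlp-11, which acts with lbp-3 downstream of LIPL-4, rose in each knockdown (1.03, 1.56 and 1.37). pha-4, a FoxA factor gene, rose by 0.72, 1.80 and 1.76, and daf-16, the FoxO factor gene upstream of lipl-4 in long-lived worms, by 0.62, 0.54 and 0.51, in the order vha-6, vha-16, vha-19.

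**Figure D5:**
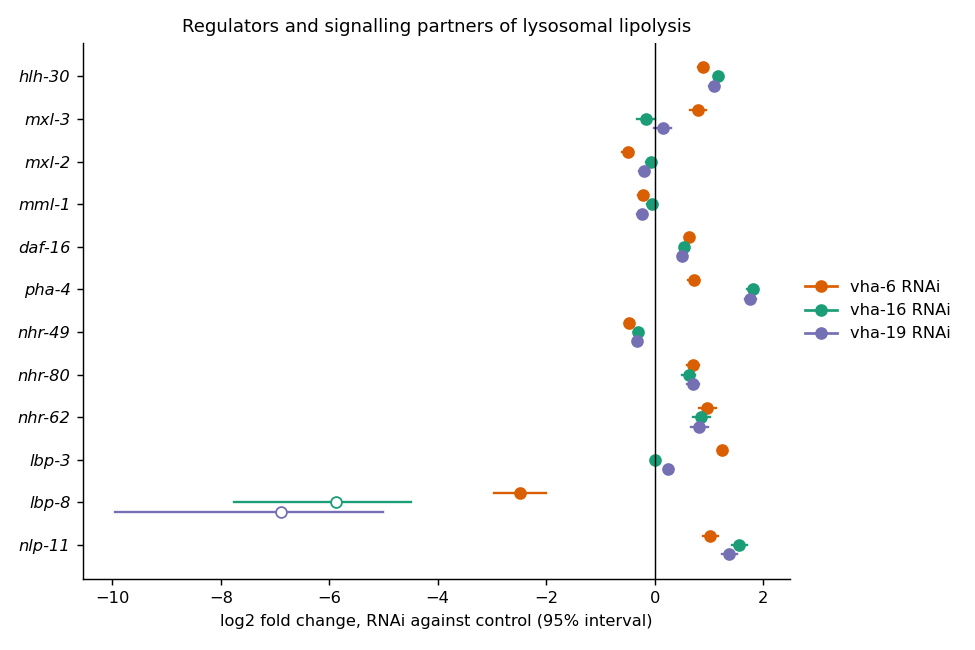
Log2 fold change against control of 12 regulators and signalling partners of lysosomal lipolysis in each knockdown, with 95% intervals; open symbols are ratios of pooled counts with exact counting intervals, used where a group held 10 counts or fewer. hlh-30, daf-16, pha-4, nhr-80, nhr-62 and nlp-11 lie right of 0 in all 3 knockdowns, and lbp-8 lies far left.

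Lipases outside the lysosome were set beside the family. Of 5 tested genes of cytosolic and fasting-induced fat breakdown, 1 rose and 4 fell on vha-6 RNAi, and 4 fell on each of vha-16 and vha-19 RNAi (median log2 fold changes -0.72, -0.59 and -0.56). With library totals the falls become 2 in each of the last comparisons, and the medians -0.28, -0.07 and -0.01. The adipose triglyceride lipase gene atgl-1 fell by 0.72, 0.69 and 0.71 on the log2 scale on RNAi of vha-6, vha-16 and vha-19, and lid-1, which encodes a lipid droplet partner of that lipase, by 2.00, 1.59 and 1.55. Of 13 tested lipase-like lips genes, 8 rose in each knockdown and 3, 4 and 4 fell (medians 1.25, 1.10 and 1.13). Among them lips-9 (3.57, 3.32 and 3.65), lips-15 (1.25, 1.10 and 1.13) and lips-17 (1.25, 2.26 and 1.63) rose in all 3. lips-14 fell by 4.45 on the log2 scale on vha-6 RNAi, and by pooled counts it was 184-fold lower than in control on vha-16 RNAi (interval 88.7 to 458) and 163-fold lower on vha-19 RNAi (interval 82.3 to 379).

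Genes that handle the products of lipolysis also moved. Of 9 fatty acid binding protein genes, 4 rose and 5 fell on vha-6 RNAi, 7 fell on vha-16 RNAi and none was called higher, and 2 rose and 6 fell on vha-19 RNAi. Their medians were -0.38, -0.74 and -0.36, the first and last of which turn to 0.07 and 0.18 with library totals. lbp-6 fell on vha-16 RNAi (-1.81) and vha-19 RNAi (-1.84), and lbp-9 fell by 1.61, 1.47 and 1.66 in the order vha-6, vha-16, vha-19. Of 13 genes of fat synthesis and lipid droplets, 2 rose and 11 fell on vha-6 RNAi, 2 rose and 10 fell on vha-16 RNAi, and 2 rose and 11 fell on vha-19 RNAi, with mboa-2, an acyltransferase gene of neutral lipid synthesis, at -1.52, -1.76 and -1.74. The medians of this list (-0.63, -0.24 and -0.31) are -0.19, 0.28 and 0.23 with library totals.

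Of 11 genes for export of lipid and sterol from lysosomes and for related membrane proteins, 7 rose and 4 fell in each knockdown (medians 0.54, 0.46 and 0.45, which are each 0.98 or 0.99 with library totals). ncr-1, a counterpart of the human Niemann-Pick C1 cholesterol transporter gene, rose by 1.73, 2.31 and 2.36. heh-1, a counterpart of Niemann-Pick C2, fell in all 3 (-0.996, -1.39 and -1.23). scav-4, a scavenger receptor gene, rose on vha-6 RNAi (0.92, adjusted p = 5.26e-17) and fell on vha-16 RNAi (-3.29) and vha-19 RNAi (-3.53).

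The genes with the profiles most like those of the family were sought among 11493 other genes with a mean of at least 5 CPM, by the root mean square difference over the 12 libraries in log2 CPM relative to control. With a prior count of 2 the measure compresses changes of scarce genes such as lipl-3, lipl-4 and lipl-8. Closest to lipl-5 were bgal-2 (0.199), ZK1193.2 (0.239) and ZK742.3 (0.253), where bgal-2 stood at 0.37, -2.88 and -3.32 on RNAi of vha-6, vha-16 and vha-19. Closest to lipl-1 were T02B5.1 (0.177), Y49E10.16 (0.236) and ncx-6 (0.29), and closest to lipl-2 were T25G12.6 (0.153), ugt-17 (0.181) and hmit-1.1 (0.185). For lipl-3 they were clec-218 (0.457), mtl-2 (0.576) and thn-2 (0.592), which all fell in the 3 knockdowns, and for lipl-8 they were F21C10.3 (0.191), Y37D8A.6 (0.202) and fbxa-90 (0.205). For lipl-4 they were C49A9.4 (0.255), C31H2.4 (0.263) and F59F4.1 (0.268), for lipl-6 fbxa-69 (0.115), sgk-1 (0.118) and sqst-2 (0.119), and for lipl-7 sid-1 (0.0502), Y45G5AM.7 (0.0624) and srp-1 (0.0632). This is a description over libraries that share their groups.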

How the data were processed

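The authors deposited 1 table of whole-number read counts per gene and library, with no normalization that the values show. It is named as filtered and does not hold every annotated gene. Per the submitters' processing notes, the build was WBcel235 (ce11), and the tools included STAR 2.73a and edgeR 3.24.3. How reads were counted, including the strand setting, is not given in the sources used here. Entries of unassigned reads were kept out of the library sizes: 7.62% to 15.4% of a library aligned to several places, 0.855% to 1.01% were ambiguous and 0.685% to 1.31% had no feature. Reads shared by near-identical genes are therefore absent from these counts. Unassigned reads of all kinds together differed by group, at 16.7% to 16.9% in control libraries. They made up 11.3% to 11.4% on vha-6 RNAi, 9.92% to 9.96% on vha-16 RNAi and 10.3% to 10.35% on vha-19 RNAi. The part of this difference in the lipl results was not tested.

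Counts were analysed with edgeR 4.0.16 in R 4.3.3. filterByExpr kept 17043 of 18467 genes, libraries were scaled by TMM (mean factors 1.05 for vha-6 RNAi, 1.10 for vha-16 RNAi, 1.12 for vha-19 RNAi and 0.770 for control), and 1 model over 12 libraries gave 6 contrasts by the quasi-likelihood F-test, adjusted over all genes by Benjamini-Hochberg and called under 0.05. The SE is the fold change over the root of F. Levels per kilobase use exon bases of the Ensembl annotation, which may differ from the authors'. Figures used matplotlib 3.10.9. The method was checked on simulated counts for vha-6 RNAi against control, with 50 genes changed at each fold. It recovered 21 at 1.2-fold, 38 at 1.5-fold, 45 at 2-fold and 50 at 4-fold. Of its 160 calls among 17043 genes, 6 were false. Few genes changed there, as many up as down, and all genes had 1 common spread. The check thus does not cover the scaling under changes as wide as those in these data.

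The labels do not say whether replicates were separate cultures, so p-values measure only how these samples vary, which may be technical. The biological coefficient of variation was 2.99%, and replicate libraries differed by more than counting noise (chi-square per degree of freedom 1.49 to 2.81). The members, lists and tests were chosen with earlier results of these data known. Genes named besides the members follow a rule (genes of lists of up to 12, in longer lists the 3 called genes with the smallest p in each comparison with control, and the 3 most alike genes per member); not every such gene is printed, and exceptions are stated. Alternatives were DESeq2 1.42.0 size factors and its Wald test, library totals, other filters, the replicate block, the compared groups alone, and leaving out each library. 3 listed lips genes without a row were not analysed here.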

Additional observations from a re-analysis of the deposited data

How the results depend on the processing

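Of 595 alternative values for the 8 genes in 6 comparisons, 568 kept their direction and side of the threshold, 13 lost a call, 6 gained one and 8 changed sign. The sign changes were lipl-5 on vha-6 RNAi against control with DESeq2's size factors and its Wald test (both -0.081), lipl-7 on vha-19 RNAi against control with library totals (0.13), and, between knockdowns and without a call, lipl-6, lipl-3, lipl-4 and lipl-8 with 1 library left out. With 1 library left out these ran from -0.027 to 0.136 for lipl-6 (vha-16 over vha-6 RNAi, with -0.011 without vha-16 replicate 2) and, for vha-19 over vha-16 RNAi, from -1.74 to 0.83 for lipl-3, from -0.044 to 0.39 for lipl-4 and from -0.021 to 0.33 for lipl-8. Scaling moved the median of all genes against control by 0.447, 0.519 and 0.543 with library totals and by -0.136, -0.191 and -0.173 with DESeq2's size factors (vha-6, vha-16, vha-19). With library totals the share of called genes that were higher became 63.9%, 65.2% and 65.3%, against 53.6%, 53.4% and 53.0% with TMM. Among lipl genes the higher and lower calls became 6 and 2, 2 and 4, and 3 and 4 with library totals, and 4 and 3, 2 and 5, and 2 and 5 with DESeq2's size factors. For vha-19 over vha-6 RNAi that share became 63.5%, against 50.4%, and for vha-19 over vha-16 RNAi 55.2%, against 43.5%.

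The number of lipl genes called moved by over 1.5 times in these cases. The filter at a mean of 5 CPM keeps lipl-1, lipl-2, lipl-5 and lipl-7, and calls 4 in each comparison with control, 3 for vha-16 over vha-6 RNAi and 4 for vha-19 over vha-6 RNAi. At 2-fold 0 are called for vha-19 over vha-16 RNAi, and leaving out 1 library gives 2 to 4 there. Summed lipl levels were 656 (vha-6), 108.1 (vha-16) and 678.6 CPM (control) with DESeq2's size factors, and 693.7, 124.9, 104.6 and 479 CPM (vha-6, vha-16, vha-19, control) with library totals. With 1 library left out they ran from 109.7 to 112.5 CPM on vha-16 RNAi and from 634 to 643.7 CPM in control.

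List counts moved with library totals. Regulators lower became 1 in each knockdown and higher 11 on vha-16 and vha-19 RNAi. Cytosolic lipases lower became 2 on vha-16 and vha-19 RNAi, with 1 higher on vha-16 RNAi. Fatty acid binding proteins higher became 3 on vha-16 and 5 on vha-19 RNAi. Fat synthesis genes lower became 7, 5 and 5, and higher 8 on vha-16 and vha-19 RNAi. With DESeq2's size factors regulators lower became 6 on vha-16 RNAi, fatty acid binding proteins higher 1 on vha-19 RNAi and fat synthesis genes higher 1 on vha-6 RNAi. Single genes that changed sign with library totals were lbp-6 (0.069) and mml-1 (0.23) on vha-6 RNAi, mml-1 (0.47), mxl-2 (0.44), mxl-3 (0.36) and nhr-49 (0.21) on vha-16 RNAi, and mml-1 (0.31), mxl-2 (0.34) and nhr-49 (0.21) on vha-19 RNAi. With DESeq2's size factors they were lbp-3 on vha-16 RNAi (-0.18) and mxl-3 on vha-19 RNAi (-0.023). The cause was not tested.

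Same-numbered libraries of different groups deviated together little, if at all (correlations -0.0352 to 0.05 over 18 pairs). The highest were between vha-16 and vha-19 RNAi (0.0271, 0.0284 and 0.05). Values this small show no clear pairing, but they cannot exclude that a number shared a culture or batch. With the replicate block the lipl calls numbered 6, 7 and 7 against control, 6 and 7 against vha-6 RNAi and 4 for vha-19 over vha-16 RNAi, and lipl-8 on vha-6 RNAi lost its call (adjusted p = 0.0519). With the compared groups alone, lipl-8 on vha-6 RNAi and lipl-4 on vha-16 and vha-19 RNAi were filtered out and have no value. Depth limits lipl-3, lipl-4 and lipl-8, which rest on under 30 counts in most libraries.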
